A study of Homo sapiens with 24 samples.

Results

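This account follows 7 human genes, MFSD5, PLEKHO1, VPS18, TBC1D2, METTL13, METRNL and RND3, that had been picked because their mRNA was higher, with little spread between replicates, after the drug STM2457. They are 7 of the 34496 genes listed in any of the deposited tables, and all 7 stand in each of the 6 tables and passed the filter on low values in each. Their rise after STM2457 is therefore how they were chosen, and it is given here as a description with no test. The label "most consistent" holds unevenly. In all 4 lines 6 genes were higher in every STM2457 library than in any DMSO library of that line. RND3 mRNA was higher after STM2457 in the U87 cells but not in the LN229 cells. TBC1D2 spread more between replicates than the median gene in U87-R and LN229. Its SD on the log2 scale was 0.29 and 0.37 there, against medians of 0.23 and 0.18.

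Polyadenylated RNA was sequenced from 4 glioblastoma cell lines in 24 libraries: U87-R and LN229-R, which are resistant to temozolomide, and the parental lines they were derived from, U87 MG and LN229. Each line received 50 µM STM2457 or an equal volume of the solvent DMSO for 96 h, which makes 8 groups of 3 replicates. The resistant lines grew in medium that held 50 µM temozolomide, an alkylating drug, under either treatment, and the parental lines did not, so resistance and the drug in the medium cannot be told apart. Cells of the U87 family were kept in EMEM (10% serum) and those of the LN229 family in DMEM (5% serum), and the library kits differed too (TruSeq Stranded and Watchmaker), so cell background, medium and kit cannot be told apart. The labels do not say that replicates were separate cultures, so the p-values may measure only technical spread, and they do not say whether a resistant line is 1 clone.

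METTL3, the enzyme that STM2457 blocks, adds N6-methyladenosine (m6A) to mRNA as part of a larger complex. The complex methylates adenosines within a short consensus of which GGACT is a common form, and m6A is found mostly in long exons and near stop codons and is sparse close to exon junctions. Reader proteins such as YTHDF2 bind m6A and speed the decay of the mRNA. No m6A was measured in these libraries, so methylation of any site below is not known.

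The 7 genes have different roles. VPS18 is a core subunit of HOPS and CORVET, the tethers that dock endosomes and lysosomes before they fuse, and TBC1D2 (Armus) turns off the late endosomal GTPase RAB7. MFSD5 is a membrane carrier that takes up molybdate. METRNL is a secreted hormone-like protein. PLEKHO1 is a casein kinase 2 binding protein that also binds the ubiquitin ligase SMURF1, and RND3 (RhoE) is an atypical GTPase that opposes RHOA and ROCK1. METTL13 methylates the translation elongation factor eEF1A and is not an m6A enzyme, despite its name.

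The GGACT nearest the stop codon is shown for each gene, in capitals, with the 10 bases on either side, because this is the motif that METTL3 commonly methylates. The letters were read 5′ to 3′ on the transcript strand from GENCODE release 29 (GRCh38), from 1 transcript per gene.
MFSD5: ggcagtggtgGGACTcttcaccgtg
VPS18: gtggccggccGGACTcactactggc
TBC1D2: ctgccaacagGGACTtcctgagcca
METRNL: aggttggcacGGACTgactccgtgg
PLEKHO1: tgcagaccccGGACTcccacctcag
RND3: cagttgctacGGACTtacgaaagga
METTL13: gactgaccttGGACTcccagcctgc

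The MFSD5 window is chr12:53254098-53254122 on the plus strand, in the coding part of exon 2 of 2, and its A stands at -76, counted in bases from the first base of the stop codon. The METRNL window, chr17:83094559-83094583 (plus, exon 4 of 4), runs across the stop codon, and its A stands at -2. The RND3 window, chr2:150470015-150470039 (minus, exon 5 of 5), and the PLEKHO1 window, chr1:150159456-150159480 (plus, exon 6 of 6), are coding, with the A at -38 and -53. In METTL13 the window at chr1:171796786-171796810 (plus, exon 8 of 8) lies in the 3′ UTR, with the A at 44. VPS18 (chr15:40900836-40900860, plus, exon 4 of 5) and TBC1D2 (chr9:98220858-98220882, minus, exon 6 of 13) are set apart, since their nearest motif lay at -890 and -1448, inside the coding sequence. Thus 5 of the 7 genes held at least 1 GGACT within 200 bases of the stop codon, on the transcript strand, and 38.1% of 10400 protein-coding genes tested in all 4 lines did so in a window of the same length.

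All values below are the authors' normalized counts, which are not divided by transcript length and were scaled separately in each table of 6 libraries, so levels are compared only within a table. Summed over genes, a library held 21232924 to 25349361 normalized counts in U87 tables and 24101385 to 28716587 in LN229 tables. A change is the log2 change with its standard error (SE), STM2457 minus DMSO, fitted over all genes of a table, and a gene is called when its adjusted p (limma, Benjamini-Hochberg over all genes tested) is under 0.05. Of the 8 glioma, astrocyte and mesenchymal markers looked up, VIM and CD44 were abundant in every library, while SOX2 was at or near 0 in the U87 family (at most 2.34 normalized counts in the drug table of U87 MG and not listed in that of U87-R), and the leukocyte gene PTPRC was at most 5.36. The summed marker list was lower after STM2457 in LN229 (75099 to 88997 normalized counts, against 105394 to 110675 in DMSO) and in LN229-R (74259 to 111360, against 118651 to 136011 in DMSO), with 8 of 8 at a mean of at least 10. Its members did not move together: in LN229 VIM had 27406 to 44109 normalized counts after STM2457, against 60685 to 66978 in DMSO, and CD44 had 29455 to 34823 after STM2457, against 12695 to 14248 in DMSO. The sum of 11 markers of other cell types, 4 of them at a mean of at least 10, was higher after STM2457 in U87-R (11307 to 13959, against 9618 to 11043 in DMSO) and overlapped in the other lines. CD68, a lysosomal protein gene, made up nearly all of it in U87-R (11205 to 13878 after STM2457, against 9469 to 10909 in DMSO), and AIF1 was not listed. The part of either list in the results was not tested. METTL3 mRNA, whose protein is the drug's target, averaged 679 ± 66.1, 886 ± 104, 1128 ± 105 and 1129 ± 109.5 normalized counts after STM2457 in U87 MG and U87-R and in LN229 and LN229-R, against 641 ± 6.46, 799 ± 76.7, 1159 ± 67.4 and 1255 ± 24.4 in DMSO (SD, n = 3 each).

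The names of the LN229 control libraries conflict between tables, and this bears on every result for those cells. Each DMSO library appears in a drug table and in a table of resistant against parental cells. For U87 cells each of the 6 columns in the second kind of table matched its namesake in the first best. For LN229 cells each of the 6 matched the like-numbered library of the other line best: log2 ratios over genes had an SD of 0.0568 to 0.0615 there, and of 0.3 to 0.363 for the namesake. MFSD5 shows it: the DMSO libraries labelled LN229-R had 679.8, 724 and 755 normalized counts in the drug table, close to the 725, 769 and 803 of the libraries labelled LN229 in the other table. Each STM2457 library stands in 1 table only, so its name could not be checked in this way. The drug changes below compare the STM2457 and DMSO libraries of a table as labelled, and whether these are of the same line in the LN229 cells was not tested. This touches RND3 most, whose groups lie closest.

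MFSD5 had the largest change of the 7 in the LN229 cells. In LN229 it had 7483, 7975 and 7618 normalized counts after STM2457, against 771, 892 and 899 in DMSO, and in LN229-R it had 8827, 7039 and 7959 after STM2457, against 679.8, 724 and 755 in DMSO. The STM2457 libraries were all far above the DMSO libraries, with a log2 change of 3.17 (SE 0.09) in LN229 and 3.46 (SE 0.11) in LN229-R, the first of which is 9.02-fold. In U87 MG the gene had 2173, 2143 and 2213 normalized counts after STM2457, against 797, 629 and 683 in DMSO, and in U87-R it had 2041, 2017 and 2362 after STM2457, against 584, 613 and 579.7 in DMSO. The groups did not overlap there either, and the changes were smaller, 1.64 (SE 0.11) and 1.85 (SE 0.11). By the ratio of the change to its SE, MFSD5 ranked 2 of 16407 genes in U87 MG and 1 of 16185, 17107 and 17063 genes in U87-R, LN229 and LN229-R. Genes were picked for a rise with little spread, so nothing is read from these ranks. Not all of the 7 ranked so: TBC1D2 was at 3074 in LN229 and RND3 at 14185 in LN229-R.

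Of the endosomal pair, VPS18 followed the same order of lines as MFSD5 at a smaller size. It had 4438, 4092 and 3855 normalized counts after STM2457 in LN229, against 988, 968 and 1067 in DMSO, and 5098, 4078 and 4464 after STM2457 in LN229-R, against 989.7, 1121 and 1115 in DMSO. In U87 MG it had 4550.2, 4328 and 4359 after STM2457, against 2374, 1929 and 1789 in DMSO, and in U87-R 4156, 4601 and 4778 after STM2457, against 1781, 1679 and 1829.5 in DMSO. No DMSO library reached an STM2457 library of its line, and the log2 changes were 1.13 (SE 0.12), 1.35 (SE 0.10), 2.03 (SE 0.08) and 2.08 (SE 0.12) in U87 MG and U87-R and in LN229 and LN229-R.

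TBC1D2, the RAB7 regulator, was the other way round, with the larger changes in the U87 cells. It had 4924, 4720.1 and 3981 normalized counts after STM2457 in U87 MG, against 1516, 1218 and 1277 in DMSO, a log2 change of 1.76 (SE 0.12). In U87-R it had 3589, 3799.5 and 2325 after STM2457, against 1143, 1238 and 1013 in DMSO (1.49, SE 0.18), and replicate 3 of the STM2457 libraries was the lowest of its group. Its counts in the LN229 cells were the lowest of the 7 genes. There it had 421, 229 and 357 after STM2457 in LN229, against 135, 184 and 179 in DMSO (0.98, SE 0.24), and 281, 245 and 242 after STM2457 in LN229-R, against 122, 176 and 145 in DMSO (0.80, SE 0.19). The groups did not overlap in either line, although replicate 2 of LN229, the lowest after STM2457 and the highest in DMSO, brought them close.

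**Figure D1:**
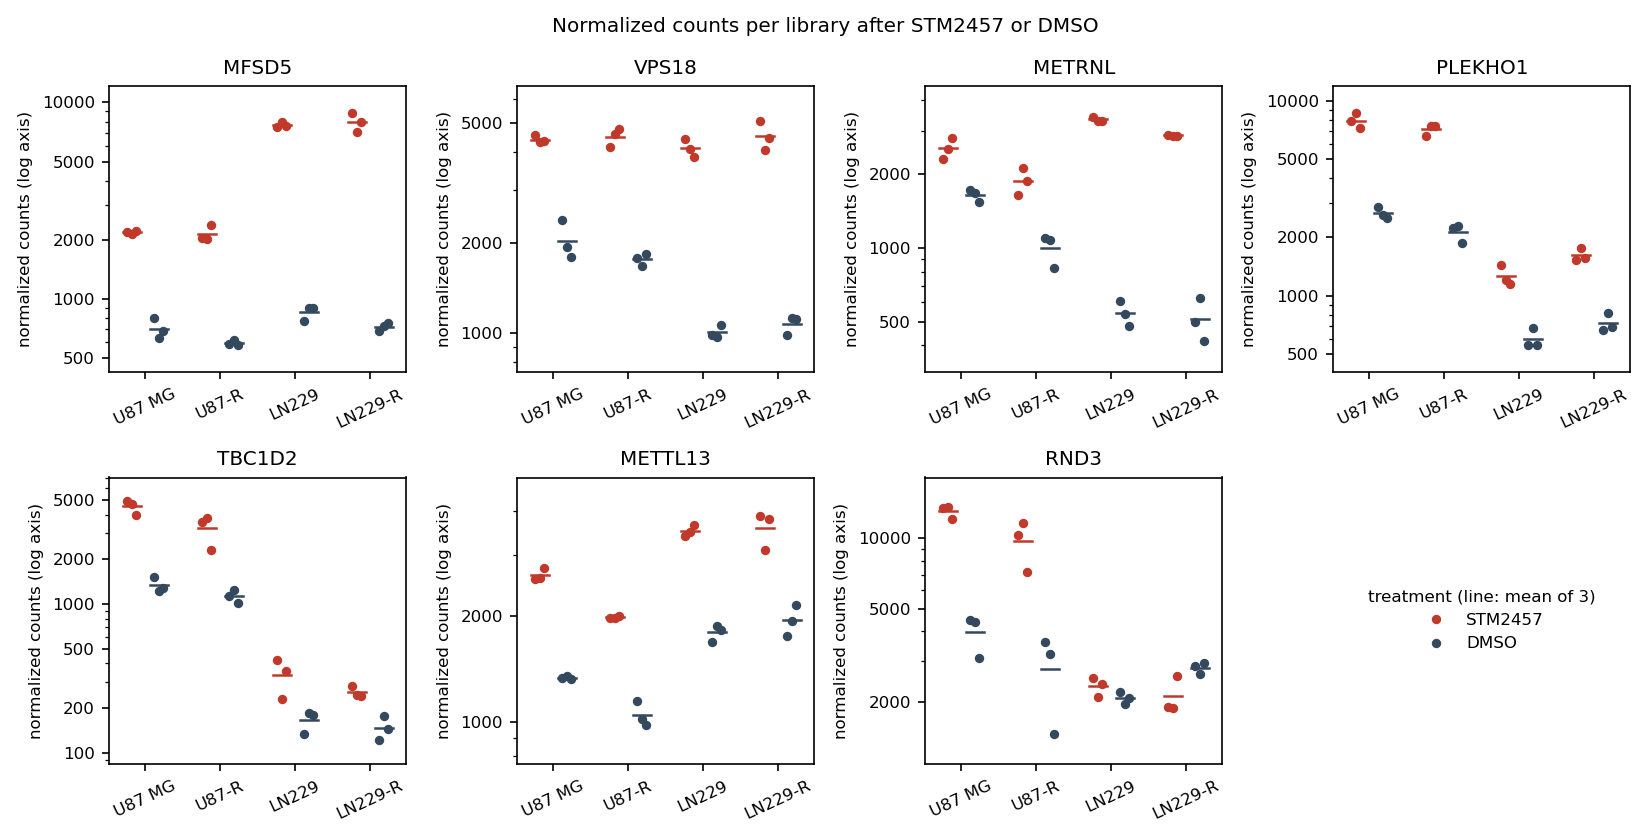
Normalized counts (log axis) of each gene in the 24 libraries of the 4 drug tables, STM2457 in red and DMSO in dark blue, with points for libraries and a line for the mean of 3. In 26 of the 28 pairs of groups every STM2457 library lies above every DMSO library of its line, and the exceptions are RND3 in LN229 (overlap) and in LN229-R (all below).

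METRNL, the secreted protein, also had its larger changes in the LN229 cells, as MFSD5 and VPS18 did. It had 3417, 3293 and 3293 normalized counts after STM2457 in LN229, against 609, 539 and 481 in DMSO (2.62, SE 0.10), and 2890.0, 2851 and 2854 after STM2457 in LN229-R, against 498, 626 and 415 in DMSO (2.50, SE 0.15). In U87 MG it had 2298, 2513 and 2796 after STM2457, against 1711, 1673 and 1532 in DMSO (0.63, SE 0.11), and in U87-R 1635, 2104 and 1875 after STM2457, against 1091, 1079 and 828 in DMSO (0.91, SE 0.15). Its change was the smallest of the 7 in U87 MG, was within the SE of that of METTL13 in U87-R, and came after that of MFSD5 in both LN229 lines.

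PLEKHO1, the casein kinase 2 and SMURF1 partner, changed more in the U87 cells. It had 7815, 8633 and 7226 normalized counts after STM2457 in U87 MG, against 2859, 2587 and 2507 in DMSO (1.57, SE 0.10), which ranked 1 of 16407 genes by the ratio of change to SE, and 6600.0, 7374 and 7403 after STM2457 in U87-R, against 2223, 2279 and 1862 in DMSO (1.75, SE 0.11). In LN229 it had 1435, 1202 and 1148 after STM2457, against 559.7, 686 and 559 in DMSO (1.07, SE 0.12), and in LN229-R 1520.3, 1755 and 1564 after STM2457, against 664, 820.1 and 694 in DMSO (1.15, SE 0.12). By the ratio of change to SE PLEKHO1 ranked 2 of 16185 genes in U87-R, 832 of 17107 in LN229 and 450 of 17063 in LN229-R. The groups stood apart in all 4 lines.

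METTL13, the eEF1A methyltransferase, had nearly the same change in every line. The log2 change was 0.97 (SE 0.09) in U87 MG, 0.93 (SE 0.10) in U87-R, 0.96 (SE 0.08) in LN229 and 0.87 (SE 0.13) in LN229-R, which is 1.83-fold to 1.96-fold. It had 2554, 2571 and 2742 normalized counts after STM2457 in U87 MG, against 1337, 1354 and 1327 in DMSO, and the SD between replicates on the log2 scale was 0.041 there. In LN229-R, where it spread most, it had 3868, 3083 and 3778 after STM2457, against 1755, 1943 and 2153 in DMSO.

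RND3, the opponent of RHOA and ROCK1, went against the label in the LN229 cells. In U87 MG it had 13462, 13571 and 12082 normalized counts after STM2457, against 4477, 4379 and 3094 in DMSO (1.73, SE 0.15). In U87-R it had 10376, 11592 and 7182 after STM2457, against 3611, 3211 and 1461 in DMSO (1.89, SE 0.32), and replicate 3 was the lowest library of both groups. Without replicate 3 of the DMSO libraries the change in U87-R was 1.48, and over all 6 ways of leaving out 1 library it was 1.48 to 2.14. These fits did not pair libraries by number, so replicate 3 of the STM2457 libraries stayed in for the 1.48. In LN229 the groups overlapped, with 2526, 2092 and 2385 after STM2457, against 2212, 1949 and 2075 in DMSO (0.16, SE 0.09). In LN229-R every STM2457 library was below every DMSO library, with 1905, 1875 and 2581 after STM2457, against 2838, 2629 and 2944 in DMSO (-0.42, SE 0.14).

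**Figure D2:**
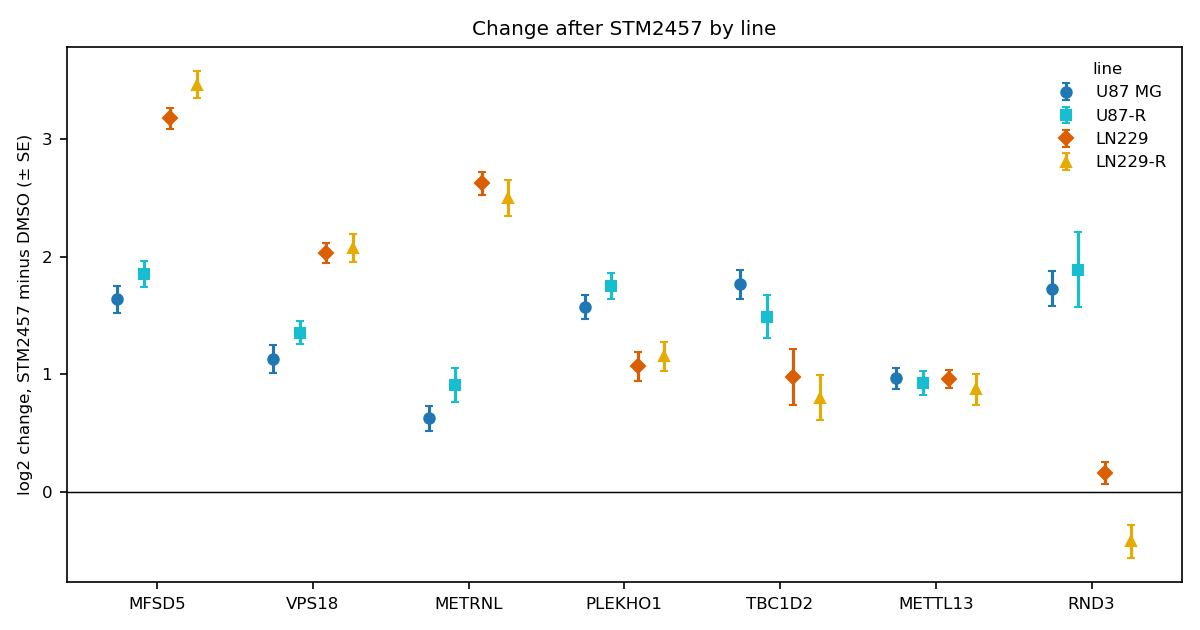
Log2 change after STM2457 (STM2457 minus DMSO) of each gene in U87 MG and U87-R and in LN229 and LN229-R, with bars for the SE of the fit. METTL13 lies between 0.87 and 0.97 in all 4 lines, MFSD5 between 1.64 and 3.46, and RND3 between -0.42 and 1.89.

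MFSD5, VPS18 and METRNL had larger changes in both LN229 lines, PLEKHO1, TBC1D2 and RND3 in both U87 lines, and METTL13 in neither. RND3 differed in sign between LN229 (0.16, SE 0.09, groups overlapping) and LN229-R (-0.42, SE 0.14). These differences were not tested, because the genes were picked on the same contrasts. Groups that did not overlap, with STM2457 above, were found for 7, 7, 6 and 6 of the 7 genes in U87 MG and U87-R and in LN229 and LN229-R, and for 18.3%, 18.4%, 30.7% and 27.5% of all genes. RND3 lay below in LN229-R, as did 25.6% of genes. The choice of the genes fixed these counts, and nothing is read from them. The median log2 change of the 7 was 1.57, 1.49, 1.07 and 1.15 in U87 MG and U87-R and in LN229 and LN229-R, and that of all genes lay between -0.02 and 0.00. The median SD between replicates on the log2 scale was 0.12 to 0.16 for the 7 genes in the 4 drug tables. For all genes tested it was 0.18 to 0.23. Little spread was part of how the 7 were picked, and all genes were not matched to them for level, so nothing is read from this difference. The median of the 7 also hides wider spread, such as an SD of 0.56 for RND3 in U87-R and 0.37 for TBC1D2 in LN229.

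Per kilobase of transcript, which allows the genes to be compared, the order of the 7 changed with the treatment in every line, and in the LN229 cells the first place changed. MFSD5 had the highest level after STM2457, at 4371 ± 144 normalized counts per kb in LN229 and 4512 ± 508 in LN229-R, and held place 3 of 7 in DMSO, at 485 ± 40.8 and 409 ± 21.4 (SD, n = 3 each). RND3 was first in DMSO in these lines, at 749 ± 47.3 and 1009.6 ± 57.8 per kb. In the U87 cells RND3 and PLEKHO1 held the first and second place under both treatments, and in U87 MG RND3 had 4695 ± 299 per kb after STM2457 and 1434 ± 278 in DMSO. Lower places changed there too. TBC1D2 went from place 7 in DMSO to 4 after STM2457 in U87 MG, and MFSD5 from 6 to 3 in U87-R. In U87-R in DMSO PLEKHO1 (1035 ± 110 per kb) and RND3 (994 ± 412 per kb) did not differ beyond their spread.

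The exon structure, which did not enter the choice of the genes, ranged from 2 to 13 exons, beside a median of 9 over 11692 protein-coding genes tested in all 4 lines. MFSD5 (ENSG00000182544, chr12:53251251-53254405, plus strand) had 2 exons and its whole coding sequence in 1 of them, as had 5.47% of those genes, and 78.8% of its transcript lay more than 200 bases from an exon junction, beside a median of 51.8%. VPS18 (ENSG00000104142, chr15:40894430-40903975, plus) had 5 exons, and exon 4, with 1871 bases, held 64.1% of its coding sequence, so that 73.5% of its bases were that far from a junction. METRNL (ENSG00000176845, chr17:83079691-83095119, plus) had 4 exons and the highest density of GGACT, 3.12 per kb beside a median of 0.94, which is the percentile 98.8 of those genes. Its longest exon had only 864 bases, and 47.3% of its transcript lay far from a junction, below the median. RND3 (ENSG00000115963, chr2:150468195-150539011, minus) had 5 exons, of which the last held 2044 of 2777 bases, and 73.6% of its transcript lay far from a junction.

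The other 3 had more exons. PLEKHO1 (ENSG00000023902, chr1:150149183-150164720, plus) had 6 exons, 56.3% of bases far from a junction and 1.95 GGACT per kb, which is the percentile 90.2. That density was above those of MFSD5, VPS18 and RND3, at 1.70, 1.28 and 1.44 per kb. METTL13 (ENSG00000010165, chr1:171781664-171814023, plus) had 8 exons, 48.5% of bases far from a junction and 0.90 GGACT per kb. TBC1D2 (ENSG00000095383, chr9:98198999-98255721, minus) had the most, with 13 exons, a longest exon of 590 bases and 24.4% of bases far from a junction, which is the percentile 20.4. Exon number thus lay below the median of 9 in every gene but TBC1D2, at percentiles from 4.4 for MFSD5 to 43.2 for METTL13. Over all genes the change after STM2457 was higher with fewer exons, as given below. The genes were picked for a rise, so nothing is read from their exon numbers.

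**Figure D3:**
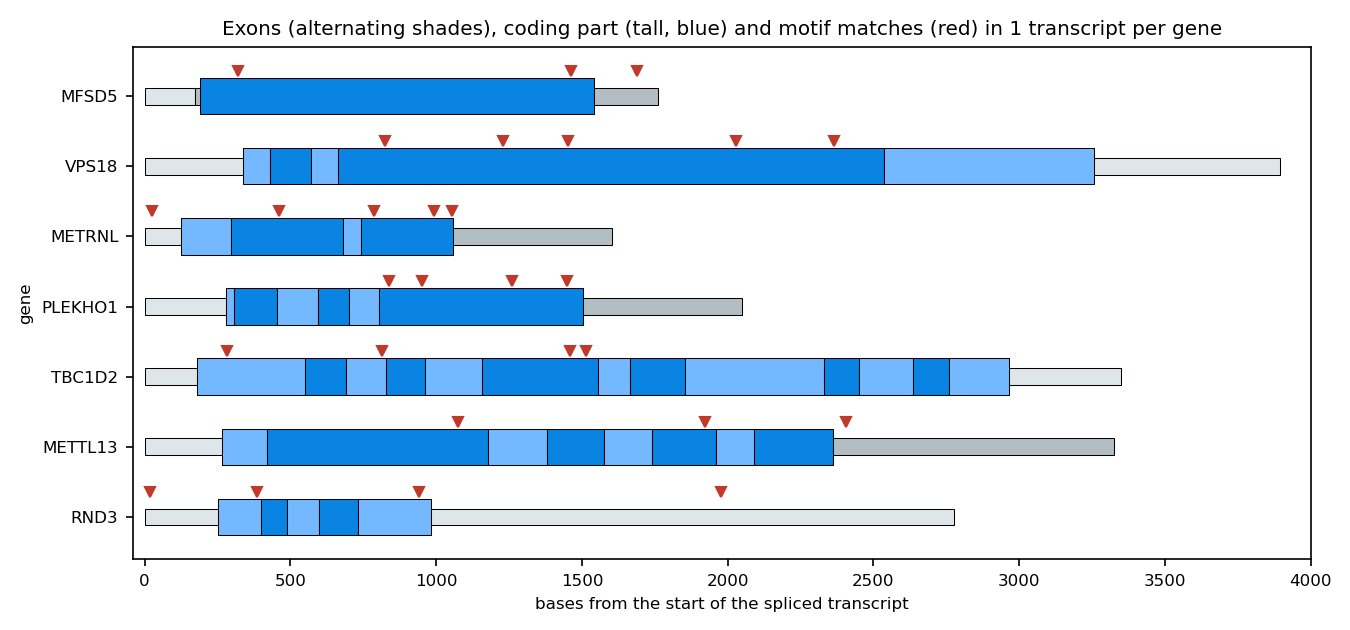
Spliced transcript of each gene to scale, in bases from its start, with exons in alternating shades, the coding part tall and blue, the untranslated parts thin and grey, and triangles at each GGACT. MFSD5 has its coding sequence in 1 exon and METRNL carries 5 motifs in 1605 bases, while the coding sequence of TBC1D2 is cut into 13 parts.

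Over all protein-coding genes tested, changes after STM2457 were higher where a transcript had fewer exons, which sets the scale for the 7. Transcripts of 1 or 2 exons had a median log2 change of 0.29, 0.28, 0.49 and 0.46 in U87 MG and U87-R and in LN229 and LN229-R, and transcripts of 15 or more exons had -0.07, -0.06, -0.09 and -0.11. The share of genes called higher in LN229 was 52.6% of the 952 genes with 1 or 2 exons and 19.6% of the 3437 with 15 or more. Spearman's rho between exon number and change was -0.18 to -0.20 across 12836 to 13101 genes in the 4 lines, a description over genes that share libraries and are not independent. MFSD5, at 3.17 in LN229, and TBC1D2, at 1.76 in U87 MG, both lay above the upper quartile of their exon classes, which was 1.02 and 0.21. Both were picked for their rise, so this follows from the choice, and nothing is read from it.

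**Figure D4:**
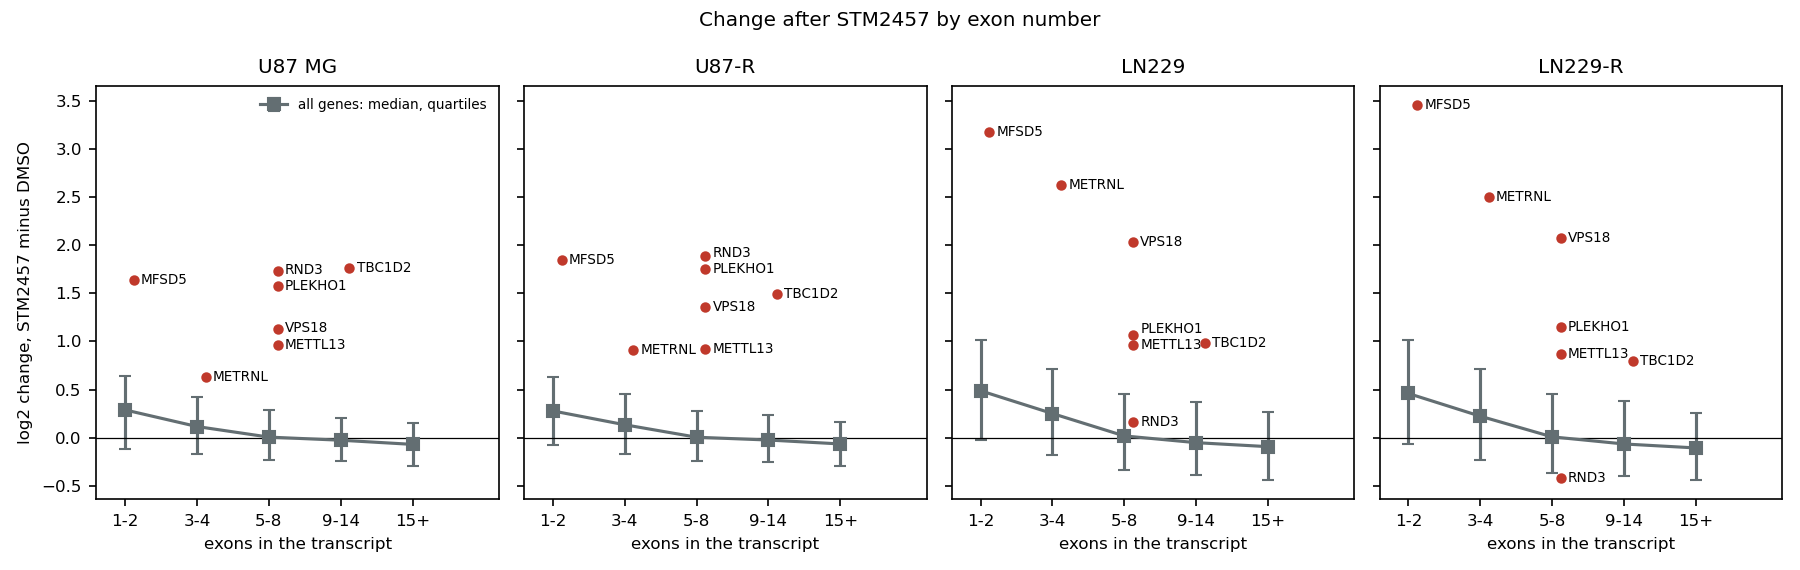
Log2 change after STM2457 (STM2457 minus DMSO) by number of exons in the 4 lines, with grey squares for the median of all protein-coding genes tested and bars for the quartiles, and red points for the 7 genes. The median falls from 0.49 at 1 or 2 exons to -0.09 at 15 or more in LN229. All 7 genes, which were picked for their rise, lie above the upper quartile of their class except RND3 in LN229 and LN229-R.

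In temozolomide resistance, which the choice of the genes did not use but which shares its DMSO libraries with the drug comparisons, each gene is given with its own test, and nothing is read from the count of calls among so few. In U87-R against U87 MG in DMSO none of the 7 was called by limma, where 4.27% of 16306 genes were, and 2 of them had an unadjusted p under 0.05. METRNL came closest, with 1121, 1113 and 848 normalized counts in U87-R, against 1535, 1498 and 1366 in U87 MG, a log2 difference of -0.52 (SE 0.13, limma adjusted p = 0.068). METTL13 was also below in every library, with 1132, 1007 and 959.5 in U87-R, against 1223, 1237 and 1207 in U87 MG (-0.25, SE 0.11, limma adjusted p = 0.28). Groups in which every U87-R library lay below occurred for 2 of the 7 genes and for 10.8% of all genes. RND3 spread widely, with 3672, 3280.3 and 1479.6 in U87-R, against 4126, 4028 and 2834 in U87 MG (-0.47, SE 0.31, limma adjusted p = 0.52), and the difference was -0.06 without replicate 3 of U87-R. The other 4 genes had differences of -0.15 to -0.05.

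In the libraries labelled LN229-R against those labelled LN229 in DMSO, 1 of the 7 genes was called, MFSD5, where 9.25% of 17136 genes were. It had 911, 1050.2 and 1060.3 normalized counts in the libraries labelled LN229-R, against 725, 769 and 803 in those labelled LN229, a log2 difference of 0.39 (SE 0.10, limma adjusted p = 0.045), and it was higher in 3 of 3 libraries. Of all genes 5.6% were called higher, and 16.3% had groups that did not overlap in this direction. The call was lost without any 1 of 5 of the 6 libraries, the exception being replicate 2 labelled LN229, with a highest adjusted p of 0.19, and with the names as the drug tables have them the difference is -0.39. RND3 had 2439, 2143 and 2284 in the libraries labelled LN229-R, against 2826, 2605 and 2923 in those labelled LN229 (-0.28, SE 0.09), with a limma adjusted p of 0.084, and 0.037 with the replicate number as a block, which called 2600 genes in place of 1585. Every library labelled LN229-R lay below, as for 14.5% of genes. TBC1D2 (0.34, SE 0.19), METRNL (0.28, SE 0.16), VPS18 (0.07, SE 0.09), METTL13 (0.06, SE 0.10) and PLEKHO1 (-0.08, SE 0.13) were not called.

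**Figure D5:**
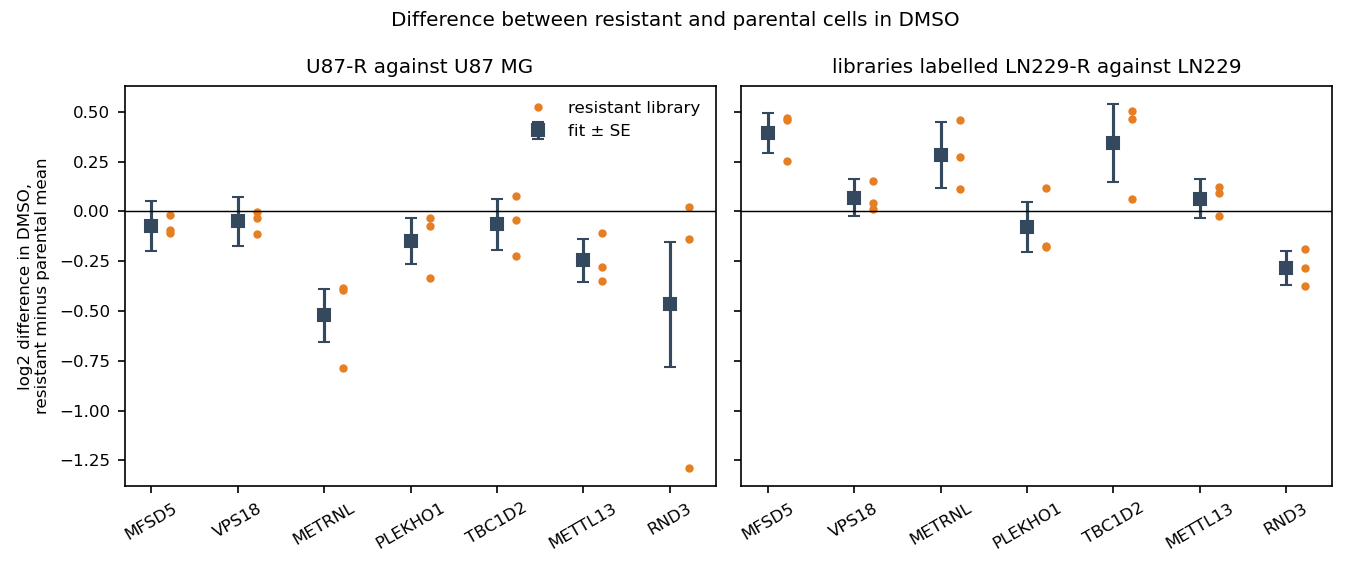
Log2 difference in DMSO of resistant minus parental cells for each gene, with squares and bars for the fit and its SE and orange points for the 3 resistant libraries against the parental mean, U87-R against U87 MG on the left and the libraries labelled LN229-R against LN229 on the right. METRNL lies lowest in U87-R at -0.52 and MFSD5 highest in the libraries labelled LN229-R at 0.39.

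Partners of the 7 genes, taken from lists of known function, gave a background of related genes. Of 69, 68, 68 and 67 partners tested in U87 MG and U87-R and in LN229 and LN229-R, 8, 13, 23 and 24 rose and 4, 5, 13 and 10 fell after STM2457. Of all genes 7.86%, 8.46%, 26.2% and 21.5% rose and 5.72%, 6.2%, 23.6% and 17.1% fell. With the replicate number as a block, 4796 genes were called in U87-R in place of 2373. Among 9 other tethering subunits of HOPS and CORVET, 2, 2, 4 and 3 rose in the 4 lines and none fell, with a median change of 0.09 to 0.24. TGFBRAP1, the CORVET subunit that binds RAB5, rose in all 4, by 0.62 (SE 0.10), 0.74 (SE 0.12), 0.82 (SE 0.09) and 0.78 (SE 0.13), with limma adjusted p-values of 0.00019 to 0.0057. The HOPS subunits VPS39 and VPS16 were not called in any line, with changes of -0.25 to 0.18. The HOPS subunit VPS41 rose by 0.72 (SE 0.10) in LN229 and 0.85 (SE 0.13) in LN229-R, and the shared core subunits VPS33A and VPS11 rose in 1 line each, VPS33A in U87 MG (0.52, SE 0.14, limma adjusted p = 0.041) and VPS11 in U87-R (0.46, SE 0.12, limma adjusted p = 0.033).

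Around RAB7, the target of TBC1D2, 3 of 15 genes rose in U87 MG, 3 in U87-R, 9 in LN229 and 8 in LN229-R, and 0, 0, 2 and 1 fell. MON1A and MON1B, subunits of the exchange factor that activates RAB7, rose in all 4 lines, MON1A by 0.84 to 1.21 and MON1B by 0.53 to 0.68, and the RAB7 effector PLEKHM1 rose by 0.77 to 0.96 (highest limma adjusted p of the 3 genes 0.012). In the list around RND3, ARHGAP35, a RHOA-inactivating protein that RND3 binds, rose by 0.46 to 0.48 in all 4 lines (highest limma adjusted p 0.012). RHOB rose by 0.81 (SE 0.15), 1.29 (SE 0.08) and 1.21 (SE 0.13) in U87-R, LN229 and LN229-R and had 0.65 (SE 0.19, limma adjusted p = 0.058) in U87 MG. RHOA itself fell by 0.42 and 0.50 on the log2 scale in LN229 and LN229-R (limma adjusted p = 0.0092 and 0.027). In the U87 cells it had changes in the same direction (-0.25 and -0.30) and was not called. Of all genes, 2228 and 2373 were called in U87 MG and U87-R, against 8506 and 6591 in LN229 and LN229-R. Whether the change of RHOA differed between lines, or went with that of RND3, was not tested.

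The closest relative of PLEKHO1, PLEKHO2, rose by 0.78 (SE 0.11), 1.62 (SE 0.08) and 1.59 (SE 0.12) in U87-R, LN229 and LN229-R and had 0.55 (SE 0.17, limma adjusted p = 0.07) in U87 MG. The ubiquitin ligase gene TRAF6 rose in all 4 lines by 0.64 to 1.10 (highest limma adjusted p 0.014). Of the casein kinase 2 and SMURF list, 1, 2, 2 and 2 of 11 rose and 1, 2, 3 and 1 fell. In the molybdenum cofactor list MOCS3, which activates a cofactor synthesis protein and has 1 exon, rose by 0.90 (SE 0.12), 0.92 (SE 0.12), 1.29 (SE 0.08) and 1.41 (SE 0.11) in U87 MG and U87-R and in LN229 and LN229-R (limma adjusted p 1.9e-05 to 0.0028), and 1, 1, 3 and 5 members rose and 2, 2, 2 and 1 fell of 9, 8, 8 and 7 tested. For METTL13, 0, 1, 2 and 2 of 10 genes for eEF1 subunits and their methyltransferases rose and 0, 0, 3 and 3 fell. EEF1A2, the second gene for the substrate, rose by 3.47 (SE 0.17) in LN229 and 3.97 (SE 0.38) in LN229-R and had -0.30 (SE 0.34) in U87 MG and 0.44 (SE 0.42) in U87-R, neither of which passed. METRN, the only relative of METRNL, rose in U87-R (0.72, SE 0.18, limma adjusted p = 0.03) and had 0.11 to 0.33 in the other lines. KIT, a reported receptor of METRNL, had 12.7 normalized counts after STM2457 in U87-R, against 43.8 in DMSO, and 39.5 after STM2457 in LN229-R, against 171 in DMSO, log2 changes of -1.69 and -2.18 (limma adjusted p = 0.013 and 0.0025).

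The genes whose pattern was most like the mean of the 7 over the 24 libraries of the drug tables, each table centred on its mean, were BLOC1S3, RAB9A, PHAX, ADAT3, LAMTOR2 and PLEKHM1, with Pearson's r of 0.979 to 0.987 among 9928 genes compared. These r come from libraries in 2 treatments and have no p. BLOC1S3, a subunit of a complex for lysosome-related organelles, had log2 changes of 1.79, 1.71, 1.51 and 1.70 in U87 MG and U87-R and in LN229 and LN229-R. RAB9A, a late endosomal GTPase, had 1.29, 1.46, 1.67 and 1.69, and ADAT3, a subunit of a tRNA deaminase, had 1.29, 1.78, 1.63 and 1.48. These 3 had their coding sequence in 1 exon, while PHAX, LAMTOR2 and PLEKHM1 had it in 5, 4 and 11. Among the 7, MFSD5 and VPS18 were most alike (r = 0.994), and METRNL and RND3 least (r = 0.225). Each gene had an r of 0.809 to 0.981 with the mean of the other 6 except RND3, at 0.549. Since the 7 were picked for a rise in these same libraries, high r among them follows from the choice, and nothing is read from it.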

How the data were processed

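The deposited values are signal: normalized counts per gene that the authors made, in 6 tables of 6 libraries, each table normalized on its own, per the file headers. The tools listed, per the submitters' processing notes, are DESeq2, Salmon (1.4.0), STAR (2.7.11a) and Trimmomatic (0.39), with the build GRCh38. Their roles, settings, annotation and use of strand are not given in the sources used here. The ratio of a library's values in 2 tables varied between genes, so the worth of 1 read is not constant, whole counts were not recovered, and the depth in reads is unknown. Identifiers were joined without version to symbols, which 20955 of 22452 to 28572 of 28669 had.

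Within a table, log2(value + 1) of genes with a mean of at least 10 was fitted with limma 3.58.1 in R 4.3.3, with a trend of variance on the mean. The fold changes are on this scale. The fit was tested on simulated data. Replicate numbers were taken to pair libraries where all 3 like-numbered pairs correlated above 0.1 in their deviations from the group means. This held in the drug tables of U87-R (0.114 to 0.298) and LN229-R (0.102 to 0.321) and in the LN229 resistance table (0.114 to 0.204). The main fits did not use the pairing, in those tables either, so their SE, adjusted p and calls are unpaired. The replicate block was fitted as an alternative only, and it called 8444 genes in LN229-R in place of 6591.

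Transcripts and exons came from GENCODE release 29, 1 principal transcript per gene, and promoters (250 bases before to 50 after a start) from RefSeq, GRCh38.p14. The 7 genes and the 7 partner lists were chosen with earlier results of these data known, the lists by function. Text names all members and, per list, up to 3 called genes that were called in the most comparisons, with a few core partners named for their role after their values were seen. Alternatives tried were the replicate block, a fit without the trend, scaling to equal totals or upper quartiles, other pseudocounts (0.5 and 5), other filters (none, or at least 50), leaving out each library, and exchanged LN229 names. Python 3.11.15 was used for the rest.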

Additional observations from a re-analysis of the deposited data

Results flagged for a closer look

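RND3 after STM2457 was marked because every STM2457 library moved up from the DMSO mean in U87 MG (log2 change 1.73), U87-R (1.89) and LN229 (0.16) and every one moved down in LN229-R (-0.42). In LN229 the groups overlapped, the SE was 0.09, and replicate 2 lay only 0.01 above the DMSO mean. The difference between lines was not tested, and neither was whether the STM2457 and DMSO libraries labelled LN229 or LN229-R in a table are of the same line.

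Between resistant and parental cells in DMSO, every resistant library of MFSD5, VPS18 and METRNL moved down from the parental mean in U87-R. In the libraries labelled LN229-R every one moved up. The log2 differences were -0.07 (SE 0.13) and 0.39 (SE 0.10) for MFSD5, -0.05 (SE 0.12) and 0.07 (SE 0.09) for VPS18, and -0.52 (SE 0.13) and 0.28 (SE 0.16) for METRNL. Groups overlapped for MFSD5 in the U87 cells, for METRNL in the LN229 cells and for VPS18 in both. Those of VPS18, and that of MFSD5 in U87-R, were smaller than their SE. Whether the U87 and LN229 cells differ here was not tested, and the direction in the LN229 cells depends on which table names the libraries rightly.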

How the results depend on the processing

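Of 224 values of the 7 genes after STM2457 under the alternatives, 221 moved by less than the SD between replicates. The others were METTL13 in U87 MG with equal totals (1.03) and equal upper quartiles (0.92) and in LN229 with equal upper quartiles (0.89). The filters, the variance trend and the replicate block leave the log2 change of a gene as it is. Only the pseudocounts and the scalings could therefore move a value, and nothing is read from the count. In the libraries labelled LN229-R against LN229, MFSD5 kept 0.39 but missed the threshold with no filter (limma adjusted p = 0.051), equal upper quartiles (0.052) and no variance trend (0.089), and its range was 0.35 to 0.46 without 1 library. RND3 there was -0.28 and passed with the replicate block, and was -0.33 to -0.24 without 1 library, passing without replicate 2 labelled LN229 (limma adjusted p = 0.021). With line names exchanged the values were -0.39 for MFSD5, -0.070 for VPS18, -0.34 for TBC1D2, -0.063 for METTL13, -0.28 for METRNL and 0.28 for RND3. In U87-R against U87 MG, METRNL (-0.52) passed with the block (limma adjusted p = 0.021), where the numbers did not pair the libraries.

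Genes called without a variance trend were 1301 in U87 MG, 1372 in U87-R, 396 in the U87 resistance and 951 in the LN229 resistance comparison, against 2228, 2373, 697 and 1585, and with the replicate block 4137, 4796, 1176 and 2600. Without 1 library they were 890 to 1803 in U87 MG, 884 to 2217 in U87-R, 4364 to 6425 in LN229-R, 315 to 607 in the U87 and 534 to 3262 in the LN229 resistance comparison, where 3262 is the count without replicate 2 labelled LN229. With equal totals 1662 were higher and 760 lower in U87 MG, against 1289 and 939, and 1189 and 472 in the LN229 resistance comparison, against 959 and 626. With equal upper quartiles the larger side turned: 1098 were higher and 1162 lower in U87 MG, 3964 and 4754 in LN229 (against 4474 and 4032), and 3329 and 3554 in LN229-R (against 3674 and 2917), and in LN229 equal totals gave 4265 and 4324. The cause of these shifts was not tested. A block pairs the libraries only by number where the lowest correlation was 0.1 or less, as in U87 MG (0.039), LN229 (0.068) and the U87 resistance comparison (0.019). With 3 libraries a group and depth unknown, differences near the SE cannot be resolved.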

Other observations

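Promoter sequence of RefSeq (GRCh38.p14) was matched for PLEKHO1, TBC1D2, METTL13, METRNL and RND3, with 9 windows of 250 bases before to 50 after a start. Neither the E-box CACGTG nor the cAMP response element TGACGTCA, both of which read the same on either strand and do not overlap one another, stood in any of the 9 windows. Over all 35116 promoter windows 7.26% held CACGTG and 1.85% held TGACGTCA.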
